A study of Mus musculus with 21 samples.

Results

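The immediate early genes followed across the series were Fos, Fosb, Jun, Junb, Jund, Egr1, Dusp1, Ier2, Klf6 and Zfp36. They were chosen by name and matched by Entrez ID, and all 10 of 10 were found among the 30519 genes of the deposited count table. All are protein coding, on chromosomes 12 (Fos), 7 (Fosb and Zfp36), 4 (Jun), 8 (Junb, Jund and Ier2), 18 (Egr1), 17 (Dusp1) and 13 (Klf6). The data are low-input RNA sequencing of blood-forming stem cells (HSC) and progenitors of megakaryocytes and red cells (MEP), sorted by FACS from mouse marrow. Of the 21 libraries, the MEP groups were Etv6 P216L (n = 3), S211I (n = 2), the double mutant with both changes (n = 3) and wild type (WT, n = 2). The HSC groups were P216L (n = 3), S211I (n = 2), the double mutant (n = 3) and WT (n = 3). Etv6 encodes an ETS-family transcriptional repressor needed in blood stem cells and platelet formation, and the series title concerns a germline change that creates a nuclear export signal. The labels used here do not state age, strain, sex, whether mice were heterozygous or whether each library came from its own animal. The p-values therefore reflect only differences among libraries, which may be technical.

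Immediate early genes are transcribed within minutes of a signal, without new protein synthesis, when kinases of the MAPK pathways act on transcription factors that already sit in the nucleus. Fos and Jun family proteins pair to form the AP-1 transcription factor, Egr1 and Klf6 are zinc-finger factors, Dusp1 is a phosphatase that switches MAPKs off, and Zfp36 binds AU-rich mRNAs and hastens their decay. In bone marrow Egr1 is known for its part in keeping stem cells quiescent and in their niche. Transcripts of this class are also known to be induced when tissue is dissociated and cells are handled. The labels state no handling times, so this was not tested.

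Depth differed between the cell types and limits what the HSC libraries can show. The MEP libraries held 3387389 to 12130358 estimated counts, against 151216 to 2250654 in 10 of the 11 HSC libraries. HSC S211I replicate 2 held 13154016 counts and stood apart. Its profile correlated with the mean MEP profile at r = 0.98 across genes, against 0.38 to 0.72 for the other HSC libraries. Summed over 14 stem cell markers it stood at 1172 CPM (the gene's counts scaled to a library of 1e+06 counts), against 602 to 917 CPM in MEP and 2053 to 6875 CPM in the other HSC libraries. Its 14 erythroid and MEP markers summed to 21981 CPM, against 21220 to 25922 CPM in MEP. P216L replicate 3 also reached 26349 CPM for these markers, above the other HSC libraries. Etv6 itself stood at 22.8 to 46.9 CPM in MEP and 46.5 to 522 CPM in HSC, and since the alleles are substitutions its count does not test the genotype labels. Values of HSC S211I replicate 2 are named apart below.

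Immediate early transcripts were lower in MEP than in HSC. Averaged over the 4 genotypes, 8 of the 10 genes fell in MEP (edgeR quasi-likelihood test, adjusted p under 0.05), where 5.31% of all 12036 genes tested were called lower and 17.5% were called in either direction. The other two, Jund and Zfp36, did not pass. The median log2 fold change over the 10 genes was −3.65, the same without the sparse Fosb and Zfp36, and over all genes tested it was 0.63, so the fold changes below are to be read against a median above 0. In bulk libraries, fewer cells that express a gene and less RNA per cell cannot be told apart.

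The sequences before the start sites of 3 genes, Fos, Fosb and Dusp1, are shown. The choice also held Ier2 and Jund, whose windows were not used. Each line holds the 250 bases before the RefSeq start on the gene's own strand, from the GRCm38.p6 table: Fos at chr12:85473640-85473889 (plus strand), Fosb at chr7:19310046-19310295 (minus strand) and Dusp1 at chr17:26508473-26508722 (minus strand). Capitals mark TGACG, the core of the cAMP response element, on either strand, and the TATA box TATAAA.
Fos: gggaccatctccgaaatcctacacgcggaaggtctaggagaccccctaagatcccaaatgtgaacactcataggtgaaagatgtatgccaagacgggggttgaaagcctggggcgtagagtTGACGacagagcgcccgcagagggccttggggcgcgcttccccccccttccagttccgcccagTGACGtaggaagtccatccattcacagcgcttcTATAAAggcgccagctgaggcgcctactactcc
Fosb: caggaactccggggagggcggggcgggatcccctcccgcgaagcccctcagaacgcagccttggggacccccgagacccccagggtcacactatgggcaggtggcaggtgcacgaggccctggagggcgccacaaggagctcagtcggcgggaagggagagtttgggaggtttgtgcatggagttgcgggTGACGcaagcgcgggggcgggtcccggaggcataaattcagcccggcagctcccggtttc
Dusp1: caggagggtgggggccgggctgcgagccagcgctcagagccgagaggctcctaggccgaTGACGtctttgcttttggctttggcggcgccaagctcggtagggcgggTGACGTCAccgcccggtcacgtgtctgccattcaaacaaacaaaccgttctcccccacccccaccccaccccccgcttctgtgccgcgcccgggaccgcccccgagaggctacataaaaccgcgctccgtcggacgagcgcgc
TGACG occurred at 129 and 66 bases before the start of Fos, at 60 before that of Fosb, and at 191 and 143 before that of Dusp1, where the last overlaps a copy on the opposite strand. TATAAA began 33 bases before the start of Fos. The 300-base windows of the table run from 250 bases before to 50 after the start, and 7 of the 10 genes had one that could be used: Fos, Fosb, Jun, Junb, Dusp1, Klf6 and Zfp36. TGACG was present in 4 of the 7 and in 20.8% of 32851 promoters, TATAAA in 2 and 13.6%, the ETS motif CCGGAA in 1 and 14.9%, the CArG box of serum response factor in 1 and 1.63%, and the AP-1 motif TGANTCA in 0 and 7.81%, each counted on both strands. A match is a description of the letters in this window.

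The Fos family members supply one partner of the AP-1 dimer. Fos, the first of them, had 38.6, 1.96 and 2.36 CPM in P216L MEP, 9.35 and 17.7 CPM in S211I MEP, 20.6, 0.231 and 30.2 CPM in double-mutant MEP, and 12.97 and 0.247 CPM in WT MEP. In HSC, Fos had 411, 43.0 and 109 CPM in P216L, 312 CPM in S211I replicate 1 and 24.8 CPM in S211I replicate 2, 895, 489.9 and 0.444 CPM in the double mutant, and 2440.2, 777 and 202 CPM in WT. Double-mutant replicate 3 and S211I replicate 2 lay inside the MEP range, and every other HSC library lay above every MEP library. The mean difference over genotypes was −4.34 ± 0.97 on the log2 scale (MEP over HSC, SE, edgeR adjusted p = 0.0040). Fosb was sparse: it was above 0 in 11 of the 21 libraries, with at most 1.01 CPM in MEP. In HSC it had 14.8 CPM in P216L replicate 1, 30.1 and 73.1 CPM in double-mutant replicates 1 and 2, 26.5 CPM in WT replicate 1, 0.456 CPM in S211I replicate 2, and 0 in the other 6 libraries. A count of 0 allows up to 6.24 to 19.8 CPM in the WT HSC libraries and at most 0.886 CPM in MEP. The fitted fold change of Fosb, −4.37 ± 1.24 (edgeR adjusted p = 0.017), depends on the prior count, because both S211I MEP libraries were at 0. Fosb missed the threshold in 7 of 26 alternatives, including those that follow. The call was lost without HSC S211I replicate 2, HSC P216L replicate 1 or HSC WT replicate 1 (adjusted p = 1.0 each). It was also lost without either S211I MEP library or MEP WT replicate 3 (adjusted p = 0.074 to 0.079).

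The Jun family members supply the other partner. Jun had 111, 25.8 and 27.2 CPM in P216L MEP, 77.0 and 73.1 CPM in S211I MEP, 62.0, 18.3 and 109 CPM in double-mutant MEP, and 64.8 and 12.8 CPM in WT MEP. In HSC, Jun had 2295, 146 and 45.9 CPM in P216L, 928 CPM in S211I replicate 1 and 98.3 CPM in S211I replicate 2, 1475, 2471 and 133 CPM in the double mutant, and 5330.1, 1501 and 643 CPM in WT. P216L replicate 3 and S211I replicate 2 overlapped the MEP range. The difference was −3.70 ± 0.64 (MEP over HSC, log2 ± SE, edgeR adjusted p = 0.00054). Junb, which acts within AP-1 and restrains stem cell proliferation in mice, stood at 24.3 to 48.2 CPM in MEP (median 32.7, n = 10) at 54.7 CPM in HSC S211I replicate 2, and at 2.35 to 653 CPM in the other HSC libraries (median 175, n = 10). P216L replicate 3, at 2 counts, was the only HSC library not above every MEP library. The Junb difference of −1.95 ± 0.63 had an adjusted p of 0.035 in edgeR. Junb missed the threshold in 15 of 26 alternatives, at an adjusted p of up to 0.14, including the fit without each single MEP library and without HSC S211I replicate 1, double-mutant replicate 1 or WT replicate 2. Jund, a family member known for steadier basal transcription, stood at 30.1 to 77.97 CPM in MEP (median 60.6), 79.3 CPM in HSC S211I replicate 2 and 35.3 to 513 CPM in the other HSC libraries (median 166). The ranges overlapped, and the difference of −0.85 ± 0.53 did not pass (edgeR adjusted p = 0.29).

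Egr1, a zinc-finger activator, had 12.5, 10.6 and 6.79 CPM in P216L MEP, 8.60 and 11.7 CPM in S211I MEP, 10.8, 8.19 and 16.9 CPM in double-mutant MEP, and 5.71 and 11.9 CPM in WT MEP. In HSC, Egr1 had 825, 1.19 and 19.997 CPM in P216L, 197 CPM in S211I replicate 1 and 9.81 CPM in S211I replicate 2, 671, 352 and 0 CPM in the double mutant, and 1666, 553 and 123 CPM in WT. P216L replicate 2, S211I replicate 2 and double-mutant replicate 3 were within or below the narrow MEP range, and the other HSC libraries were above it. The difference was −4.28 ± 0.95 (log2 ± SE, edgeR adjusted p = 0.0039). Ier2, a nuclear protein of the early response, varied least in MEP, at 42.3 to 67.1 CPM (median 49.0). In HSC, Ier2 had 1699, 221 and 16.5 CPM in P216L, 561 CPM in S211I replicate 1 and 69.6 CPM in S211I replicate 2, 332, 536 and 41.8 CPM in the double mutant, and 1131, 524 and 244 CPM in WT. P216L replicate 3 and double-mutant replicate 3 lay below every MEP library and the rest above them all. The difference of Ier2 was −2.57 ± 0.59 (edgeR adjusted p = 0.0049).

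Klf6, a zinc-finger factor of the Krüppel-like family, had 7.69, 4.53 and 6.79 CPM in P216L MEP, 13.3 and 7.28 CPM in S211I MEP, 9.36, 4.96 and 4.06 CPM in double-mutant MEP, and 2.42 and 5.36 CPM in WT MEP. In HSC, Klf6 had 36.9, 15.5 and 8.23 CPM in P216L, 353 CPM in S211I replicate 1 and 14.7 CPM in S211I replicate 2, 159, 54.1 and 0 CPM in the double mutant, and 99.2, 1116 and 231 CPM in WT. P216L replicate 3 and double-mutant replicate 3 reached into the MEP range or below it. The difference was −3.61 ± 0.85 (log2 ± SE, edgeR adjusted p = 0.0059).

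Dusp1, the MAPK phosphatase with TGACG in its printed promoter, was the only one of the 10 genes whose values did not overlap between all MEP and all HSC libraries. Across all genes tested, 0.557% were lower in MEP without overlap, and 0.947% when HSC S211I replicate 2 was left out. Dusp1 had 28.0, 5.74 and 4.43 CPM in P216L MEP, 18.3 and 13.8 CPM in S211I MEP, 20.2, 4.38 and 21.7 CPM in double-mutant MEP, and 12.1 and 7.75 CPM in WT MEP. In HSC, Dusp1 had 1382, 384 and 145 CPM in P216L, 873 CPM in S211I replicate 1 and 55.8 CPM in S211I replicate 2, 1164, 1575 and 119 CPM in the double mutant, and 4139.8, 1253 and 275 CPM in WT. The lowest HSC value, that of S211I replicate 2, was still above the highest MEP value. The difference was −5.44 ± 0.66 (log2 ± SE, edgeR adjusted p = 6.0e-06), and it was −5.49 ± 0.65 without S211I replicate 2. Fos, Jun, Egr1, Ier2 and Klf6 also passed without that library, at −4.39, −3.74, −4.32, −2.59 and −3.64 on the log2 scale.

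Zfp36, whose protein hastens mRNA decay, was above 0 in 7 of 10 MEP libraries and in 3 of 11 HSC libraries. A count of 0 in the other 8 HSC libraries allows up to 1.33 to 19.8 CPM. In MEP it had 1.14, 5.74 and 0 CPM in P216L, 1.05 and 0.394 CPM in S211I, 1.66, 0 and 1.24 CPM in the double mutant, and 0 and 3.87 CPM in WT. The 3 HSC libraries above 0 were double-mutant replicates 1 and 2, at 25.3 and 143 CPM, and S211I replicate 2, at 0.536 CPM. A level such as that in MEP was not detectable in most of those HSC libraries at this depth, and the test did not pass (edgeR adjusted p = 0.49). In 8 of the 10 libraries where it was above 0 its estimated count was not whole, as happens where Salmon divides reads between genes, so its values are uncertain.

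**Figure D1:**
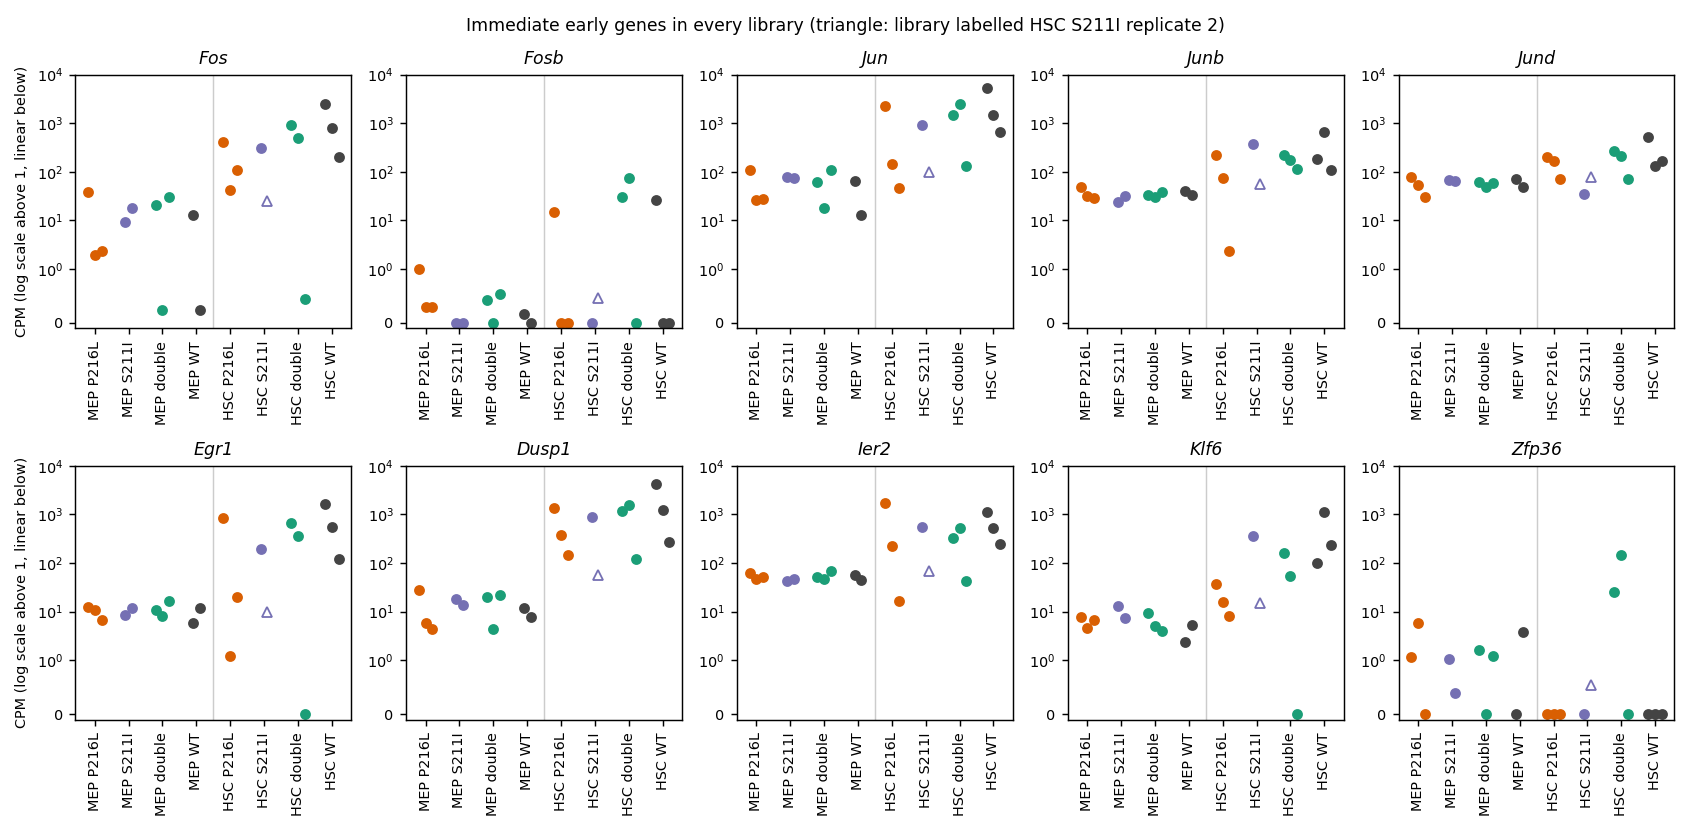
CPM of each gene in every library (vertical axis, logarithmic above 1 and linear below), with MEP groups left of HSC groups and mutants left of WT. Each point is a library and the open triangle is HSC S211I replicate 2, which sits near the MEP values for most genes, such as Jun at 98.3 CPM.

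Within WT alone, MEP lay below HSC without overlap for 8 genes: Fos, Jun, Junb, Jund, Egr1, Dusp1, Ier2 and Klf6, where 8.24% of all genes tested did so. Only Dusp1 and Jun passed the test in this smaller comparison of 2 MEP with 3 HSC libraries, where 0.474% of genes were called lower and 4.1% in either direction. Dusp1 averaged 9.93 ± 3.08 CPM in WT MEP (SD, n = 2) and 1889 ± 2009.5 CPM in WT HSC (SD, n = 3), a log2 difference of −6.69 ± 1.47 (edgeR adjusted p = 0.011). Jun averaged 38.8 ± 36.8 CPM in WT MEP and 2492 ± 2495 CPM in WT HSC, a difference of −5.14 ± 1.45 (edgeR adjusted p = 0.041). Fos, Klf6 and Egr1 differed by −6.56 ± 2.28, −6.31 ± 2.06 and −5.60 ± 2.14 with adjusted p = 0.079, 0.067 and 0.098 in edgeR. For the alternatives that follow, the share of all genes called is not given. A count of the 10 there is not read as particular to them. Neither Dusp1 nor Jun passed without MEP WT replicate 1 or without MEP WT replicate 3, Jun missed the threshold without HSC WT replicate 1 or 2, and DESeq2 called 8 of the 10.

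**Figure D2:**
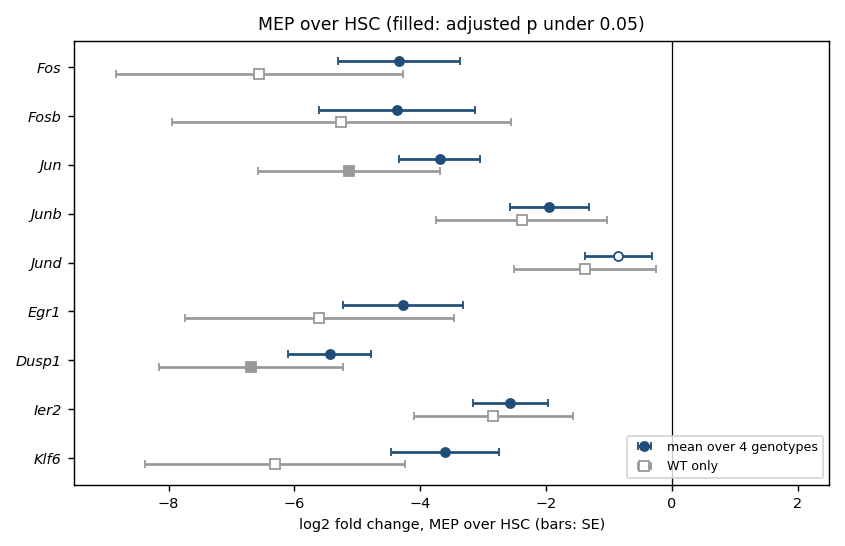
Log2 fold change of MEP over HSC with its SE, as the mean over 4 genotypes (circles) and in WT only (squares), with filled symbols where the edgeR adjusted p was under 0.05. Every value lies left of 0, Dusp1 farthest over the 4 genotypes at −5.44 and Jund nearest at −0.85, and Zfp36 is left out because of its many zeros.

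Other genes of the early response were less uniform. Of 32 further early response genes, 24 could be tested between MEP and HSC over all genotypes. The mRNAs of 5 fell in MEP: Rhob (−4.67 ± 1.19), Pim1 (−3.74 ± 1.02), Btg2 (−2.68 ± 0.89), Klf10 (−1.88 ± 0.43) and Ppp1r15a (−1.65 ± 0.42, log2 ± SE, edgeR adjusted p = 0.0044 to 0.040). They encode a small GTPase, a survival kinase, an antiproliferative factor, a TGF-beta-induced repressor and a phosphatase subunit of the stress response. Myc, the growth regulator, rose in MEP by 1.24 ± 0.28 (edgeR adjusted p = 0.0040). The median of the list was −1.03, beside 0.63 for all genes, of which 5.31% were called lower in MEP and 12.2% higher.

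Among 24 upstream kinases and factors, all tested, Elk3 (−3.79 ± 1.06) and Rps6ka1 (−1.61 ± 0.44) fell in MEP and Elk1 (3.72 ± 1.18) rose (edgeR adjusted p = 0.015, 0.014 and 0.034). Over all genes tested, 5.31% were called lower in MEP and 12.2% higher. Elk1 and Elk3 are ETS-family partners of serum response factor, and Rps6ka1 is a kinase downstream of ERK. The fitted value of Elk1 depends on the prior count, because all WT and double-mutant HSC libraries were at 0. Of 11 other MAPK phosphatases and feedback regulators tested, Spry4, an inhibitor of receptor signalling, rose (2.97 ± 1.03, edgeR adjusted p = 0.047) and none fell. It too was at 0 in all double-mutant HSC libraries, so its fitted value depends on the prior count. None of 12 genes for binding and decay of AU-rich mRNAs passed in edgeR, and 1 had an unadjusted p under 0.05, Zfp36l2 at −0.79 ± 0.31. Among heat shock genes, 6 of 13 tested rose in MEP and none fell, where 12.2% of all genes were called higher. They were the chaperones Hspe1 (1.94 ± 0.45), Hspd1, Hsp90aa1, Hsp90ab1 (1.48 ± 0.26), Hspa5 and Hspa8 (edgeR adjusted p = 0.00061 to 0.0088). The median of the list was 1.48, beside 0.63 for all genes. Their summed level was 8845 to 10098 CPM in MEP and 3830.4 to 6704 CPM in HSC without S211I replicate 2, which stood at 9303 CPM. Not all genes of the list were expressed at such levels. Hspb1 was at 0 in every library, and Hspa1b had a median of 1.41 CPM in MEP and 0 in HSC.

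Markers of other cells moved with the difference between MEP and HSC. The 12 neutrophil and monocyte markers summed to 7.43 to 176 CPM in MEP, 198 CPM in HSC S211I replicate 2 and 274 to 2874 CPM in the other HSC libraries. Of 11 tested, 6 fell in MEP: Lyz2, S100a9, S100a8, Prtn3, Camp and Ltf (log2 fold changes of −5.05 to −4.04). The 12 endothelial and stromal markers summed to 41.5 to 144 CPM in MEP, 123 CPM in HSC S211I replicate 2 and 149 to 16162 CPM in the other HSC libraries. Of 11 tested, 4 fell: Sparc, Col1a1, Col1a2 and Pecam1 (−8.86 to −3.06). Each marker of both lists was above 0 in at least 1 MEP library, and in HSC only Csf1r and Itgam were at 0 in all 10 libraries other than S211I replicate 2. Of the stem cell markers Mmrn1, Meis1, Hlf, Procr, Mecom, Cd34 and Ly6a fell in MEP (−9.49 to −4.84). Of the erythroid and MEP markers Car1, Car2, Klf1, Epor, Gata1 and Rhag rose (1.20 to 2.76), and the globin genes Hbb-bt and Hba-a1 fell (−2.04 and −1.71). The megakaryocyte markers Selp and Itgb3 fell (−4.57 and −2.95). Selp had a median of 0.380 CPM in HSC (highest 198) and 0.627 CPM in MEP, and Itgb3 3.04 (highest 317) and 1.08 CPM. Ltf and Col1a1 had HSC medians of 0 and 0.641 CPM, with highest values of 365 and 3813 CPM. The calls of Selp, Ltf and Col1a1 therefore rest on the higher HSC libraries. The B cell markers Igll1 and Vpreb1 rose, from fitted values that depend on the prior count because several HSC groups were at 0, and the same holds for Procr and Col1a1, each at 0 in 1 MEP group. All these calls had an edgeR adjusted p of 5.1e-08 to 0.048, where 5.31% of all genes were called lower in MEP and 12.2% higher. Of 3 T and NK cell markers tested none passed in edgeR, and 1 had an unadjusted p under 0.05. Their part in the immediate early values was not tested.

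The median spread among the WT HSC libraries was wider for these genes than over all genes. Among the 8 genes above 0 in all 3 WT HSC libraries, the median coefficient of variation was 101%, beside 65.9% over the 3075 genes seen in all 3. The median ratio of highest to lowest CPM was 9.77, beside 4.17 for those genes. On TMM-normalized library sizes the coefficient was 88.8% beside 65.7%, and the ratio 6.89 beside 4.26. WT replicate 1, the shallowest library of the series, was highest for Fos, Fosb, Jun, Jund, Egr1, Dusp1 and Ier2. WT replicate 2 was highest for Junb and Klf6. WT replicate 3 was lowest for Fos, Jun, Junb, Egr1, Dusp1 and Ier2. The ratio between the highest and the lowest WT library was 15.1 for Dusp1, 13.6 for Egr1, 12.1 for Fos, 11.3 for Klf6, 8.29 for Jun, 6.03 for Junb, 4.64 for Ier2 and 3.82 for Jund. The order of the WT libraries was shared by most but not all genes of the class.

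Across HSC libraries the summed level of the 10 genes ran from 408 CPM in S211I replicate 2 to 15524 CPM in WT replicate 1. In most libraries it is mainly made of Jun, Dusp1, Fos, Ier2 and Egr1. It was 7078, 1053 and 416 CPM in P216L, 3635 CPM in S211I replicate 1, 5234, 6071 and 479 CPM in the double mutant, and 15524, 6512 and 1990.3 CPM in WT. In MEP it lay between 159 and 389 CPM, below every HSC library. The sum moved with depth: the 6 HSC libraries under 500000 counts had 1990.3 to 15524 CPM, and 4 libraries above it, without S211I replicate 2, had 416 to 5234 CPM. It also moved with the replicate number, at 3635 to 15524 CPM in the 4 libraries numbered 1, 408 to 6512 CPM in the 4 numbered 2 and 416 to 1990.3 CPM in the 3 numbered 3. The labels do not say what a number stands for, and the part of depth in these sums was not tested. The lowest sums belonged to the libraries whose profiles were nearest to MEP: S211I replicate 2 (r = 0.98), P216L replicate 3 (0.72) and double-mutant replicate 3 (0.70). Double-mutant replicate 1 was next in likeness (0.68), and its sum of 5234 CPM was above the HSC median of 3635 CPM. The likeness itself followed depth. It was 0.38 to 0.56 in the 6 HSC libraries under 500000 counts and 0.59 to 0.98 in the 5 above it. Whether depth or cell identity sets the likeness was not tested.

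**Figure D3:**
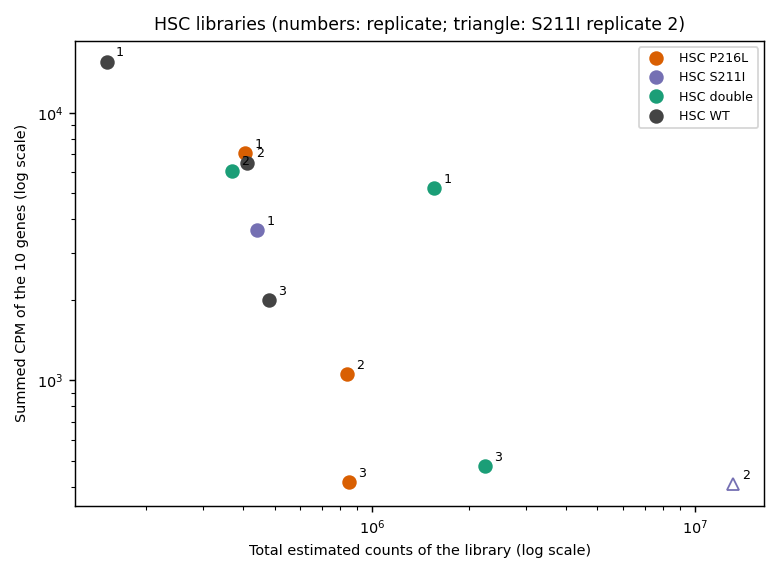
Summed CPM of the 10 genes against the total estimated counts of each HSC library (both axes logarithmic), with colours for genotype and digits for the replicate number. The sum is 15524 CPM in the shallowest library, WT replicate 1, and 408 CPM in the deepest, S211I replicate 2 (open triangle).

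None of the 10 genes passed the test in HSC of any Etv6 mutant against WT. Over all 9471 genes tested the shares called in either direction were 0.106% for P216L, 0.0845% for S211I, 0.0739% for the double mutant and 0.232% for the mean of the 3 mutants. DESeq2 also called none of the 10, and edgeR called none with HSC S211I replicate 2 left out. With the replicate number as a block edgeR called 1, Jun, for P216L, S211I and the mean of the mutants (−2.16 for the mean, adjusted p = 0.0018), though the numbers were not shown to pair libraries. At an unadjusted p under 0.05 edgeR gave 3 of the 10 in the mean of the mutants (12.8% of all genes): Fos at −1.94 ± 0.69 (adjusted p = 0.23), Dusp1 at −1.25 ± 0.51 (adjusted p = 0.31) and Klf6 at −2.79 ± 1.18 (adjusted p = 0.33). Single mutants gave Fos, Dusp1 and Klf6 in P216L (12.9% of all genes), Fos and Dusp1 in S211I (8.15%), and the double mutant gave Zfp36 (10.5%). In the mean of the mutants 9 of the 10 log2 fold changes were below 0, with a median of −1.08 (−1.30 without Fosb and Zfp36) beside 0.24 for all genes. Depth differed with genotype: the WT HSC libraries held 151216 to 480419 counts, and the mutants 369439 to 13154016. Mutants under 500000 counts had sums of the 10 genes of 7078 (P216L replicate 1), 3635 (S211I replicate 1) and 6071 CPM (double-mutant replicate 2). In WT the sum was 1990.3 to 15524 CPM, and the part of depth was not tested. Erythroid and MEP markers differed in the opposite direction to most of the 10 genes. The sum of these markers was 8162 to 26349 CPM in the 8 mutant HSC libraries and 3151 to 6473 CPM in WT HSC, with no overlap. All 14 of these markers had a log2 fold change above 0 in the mean of the mutants (median 2.12), 6 of them at an unadjusted p under 0.05, and none passed after adjustment in edgeR. Their part in the immediate early values was not tested.

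Fos averaged 188 ± 196 CPM in P216L HSC, 168 ± 203 CPM in S211I HSC, 462 ± 448 CPM in double-mutant HSC and 1139.9 ± 1162 CPM in WT HSC (SD, n = 3, 2, 3 and 3). Every mutant group overlapped WT. Without WT replicate 1 the difference of the mutant mean shrank to −0.98 for Fos and −0.21 for Dusp1, against −1.94 and −1.25 with it. It was −0.41 for Jun, −0.67 for Egr1 and 0.0037 for Ier2 without that library, against −1.35, −1.63 and −0.48 with it. For Klf6, which was highest in WT replicate 2, it was −3.34 without WT replicate 1, against −2.79 with it. Over all fits with 1 library left out, the Klf6 value ranged from −3.77 to −1.37.

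Klf6 was the one gene whose 3 P216L HSC libraries all lay below every WT HSC library, at 36.9, 15.5 and 8.23 CPM in P216L HSC against 99.2, 1116 and 231 CPM in WT HSC, where 4.69% of all genes did so. Its difference was −4.57 ± 1.75 (log2 ± SE), with an edgeR adjusted p of 0.37. The Klf6 values of P216L replicates 1, 2 and 3 rest on 15, 13 and 7 counts, and that of WT replicate 1 on 15 counts. Jund did the same in S211I HSC, at 35.3 CPM in replicate 1 and 79.3 CPM in replicate 2 against 513, 134 and 165 CPM in WT, where 6.13% of all genes did so (−1.76 ± 1.88, edgeR adjusted p = 1.0). Replicate 2 is the library with the profile near MEP. In the double mutant Zfp36 had 25.3 and 143 CPM in replicates 1 and 2 and 0 in replicate 3, against 0 in all 3 WT libraries. The difference did not pass (edgeR adjusted p = 0.47). The same 2 libraries also held 2874 and 2523 CPM of neutrophil and monocyte markers, against 422 to 1078 CPM in WT, and the part of those cells was not tested.

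The P216L HSC group was split for 5 of the genes: Fos, Jun, Junb, Egr1 and Ier2 lay within or above the WT range in replicate 1 and below it in replicates 2 and 3. Replicate 1 had Jun at 2295 CPM, Egr1 at 825 CPM and Ier2 at 1699 CPM. Replicates 2 and 3 had Jun at 146 and 45.9 CPM, Egr1 at 1.19 and 19.997 CPM and Ier2 at 221 and 16.5 CPM. Dusp1 and Jund did not follow the split, since replicate 2 was inside the WT range at 384 and 167 CPM and replicate 3 alone was below it, and Klf6 was below WT in all 3. P216L replicate 1 also held 16162 CPM of endothelial and stromal markers, against 642 to 2289 CPM in WT. Replicate 3 held 26349 CPM of erythroid and MEP markers and replicates 1 and 2 held 8478 and 8162 CPM, against 3151 to 6473 CPM in WT. Depth differed along the split too, at 406024 counts in replicate 1 and 837667 and 850136 in replicates 2 and 3. The share of all genes split in this way was not counted. The part of depth or of these markers in the split was not tested.

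**Figure D4:**
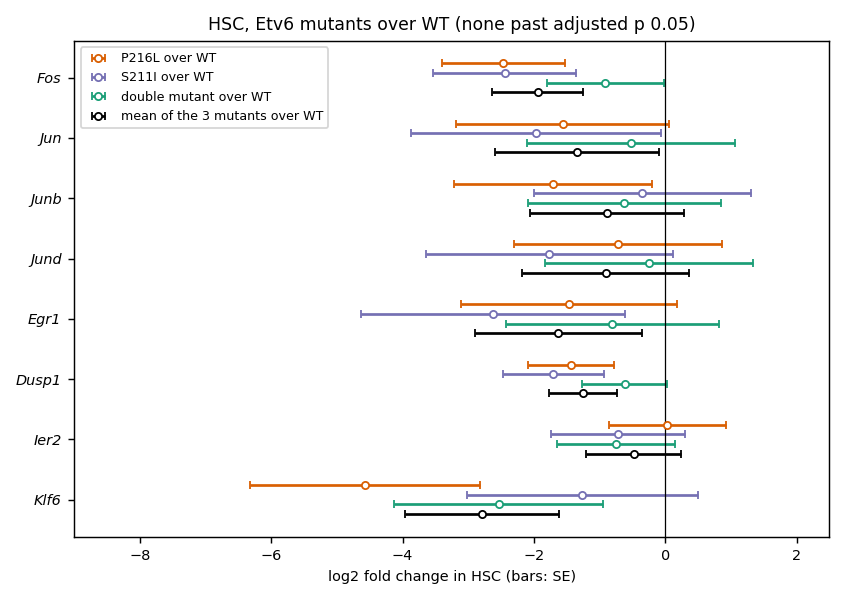
Log2 fold change with SE in HSC for P216L, S211I, the double mutant and the mean of the 3 mutants over WT, for the 8 genes above 0 in most libraries. Most values lie below 0, from −4.57 for Klf6 in P216L to 0.034 for Ier2 in P216L, and none passed the adjusted threshold.

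The related gene lists of the early response gave no call in mutant HSC. In the mean of the mutants against WT, none of 18 tested further early response genes, 21 upstream kinases and factors, 10 phosphatases and feedback regulators, 12 AU-rich binding genes or 12 heat shock genes passed in edgeR. At an unadjusted p under 0.05 edgeR gave 2, 4, 2, 0 and 2 of them, where it gave 12.8% of all genes. The median was −0.55 for further early response genes and 0.82 for heat shock genes, beside 0.24 for all genes. Stem cell markers summed to 2053 to 4144 CPM in mutant HSC without S211I replicate 2 and to 4166 to 6875 CPM in WT HSC. Among the marker lists 1 gene passed, the stromal chemokine Cxcl12, in the double mutant and in the mean of the mutants (edgeR adjusted p = 0.037 and 0.0017). It was at 0 to 24.7 CPM in mutant HSC and at 0, 1267 and 337 CPM in WT HSC, so the call rests on 2 WT libraries and its fitted value depends on the prior count.

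In MEP none of the 9 genes tested passed in any Etv6 mutant against WT, and Fosb was too low to test. In that cell type 0% of 10773 genes were called for P216L, 0% for S211I, 0.102% for the double mutant and 0% for the mean of the mutants. DESeq2 also called none. Ier2 averaged 53.6 ± 8.69 CPM in P216L, 44.3 ± 2.82 CPM in S211I, 55.4 ± 10.6 CPM in the double mutant and 50.5 ± 8.08 CPM in WT (SD, n = 3, 2, 3 and 2). The mean mutant difference of Ier2 was −0.0077 ± 0.18, of Jund −0.026 ± 0.24, of Junb −0.21 ± 0.20 and of Egr1 0.23 ± 0.33 on the log2 scale. At an unadjusted p under 0.05, where all genes gave 5.12% for P216L, 4.74% for S211I, 5.24% for the double mutant and 4.57% for the mean, there was 1 value among the members. This was Klf6 in S211I, at 13.3 and 7.28 CPM in S211I MEP against 2.42 and 5.36 CPM in WT MEP. Both S211I libraries were above both WT libraries (1.32 ± 0.51, edgeR adjusted p = 0.94). The share of all genes that did so was not counted, so this is not read as particular to Klf6. Fos, Jun and Dusp1 had wide errors, at 1.30 ± 1.89, 0.74 ± 0.98 and 0.57 ± 0.81 for the mean of the mutants.

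The effect of a mutation in MEP minus that in HSC, tested as an interaction, passed for none of the genes in edgeR. All genes gave 0.0997%, 0% and 0.0166% for P216L, S211I and the double mutant, and 16.2%, 10.6% and 15.2% at an unadjusted p under 0.05. At that level there was 1 of the 10 genes for P216L, Klf6 (5.22 ± 2.27, edgeR adjusted p = 0.26), none for S211I and 1 for the double mutant, Zfp36, whose fitted value depends on the prior count because WT HSC were at 0 (edgeR adjusted p = 0.25). Both shares were below those of all genes. Of 30 gene and genotype pairs, 7 had every mutant library above the WT mean in MEP and below it in HSC. S211I gave 5 of these pairs (12.1% of all genes did so), P216L gave 1 (6.07%) and the double mutant gave 1 (6.18%).

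The MEP libraries divided across the genotypes for some of the genes. The 4 libraries lowest in Fos were P216L replicates 2 and 3, double-mutant replicate 2 and WT replicate 3, at 0.231 to 2.36 CPM, while the other 6 had 9.35 to 38.6 CPM. The same 4 were also the lowest in Jun, at 12.8 to 27.2 CPM against 62.0 to 111 CPM in the other 6. They were lowest in Dusp1, at 4.38 to 7.75 CPM against 12.1 to 28.0 CPM, and in Jund, at 30.1 to 53.8 CPM against 58.3 to 77.97 CPM. Fos separates the sets by definition, and Jun, Dusp1 and Jund did not overlap between them either. The share of all genes that did so was not counted, so this is not read as particular to these genes. Junb, Egr1, Ier2 and Klf6 did overlap, with Ier2 at 44.8 to 51.4 CPM in the 4 and 42.3 to 67.1 CPM in the 6. From lowest to highest MEP library Fos spanned 167-fold, Jun 8.67-fold, Dusp1 6.38-fold, Klf6 5.48-fold, Egr1 2.96-fold, Jund 2.59-fold, Junb 1.98-fold and Ier2 1.59-fold. The lowest Fos values rest on 2 and 3 counts. All 4 MEP libraries numbered 1 were among the 6, and the 4 low libraries were numbered 2 or 3, as were the other two of the 6. The sets were defined by Fos, so they are a description and were not tested. Depth was 3387389 to 12130358 counts in the 4 and 4805997 to 7932134 in the 6, and the summed heat shock genes 8851 to 9899 CPM and 8845 to 10098 CPM.

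**Figure D5:**
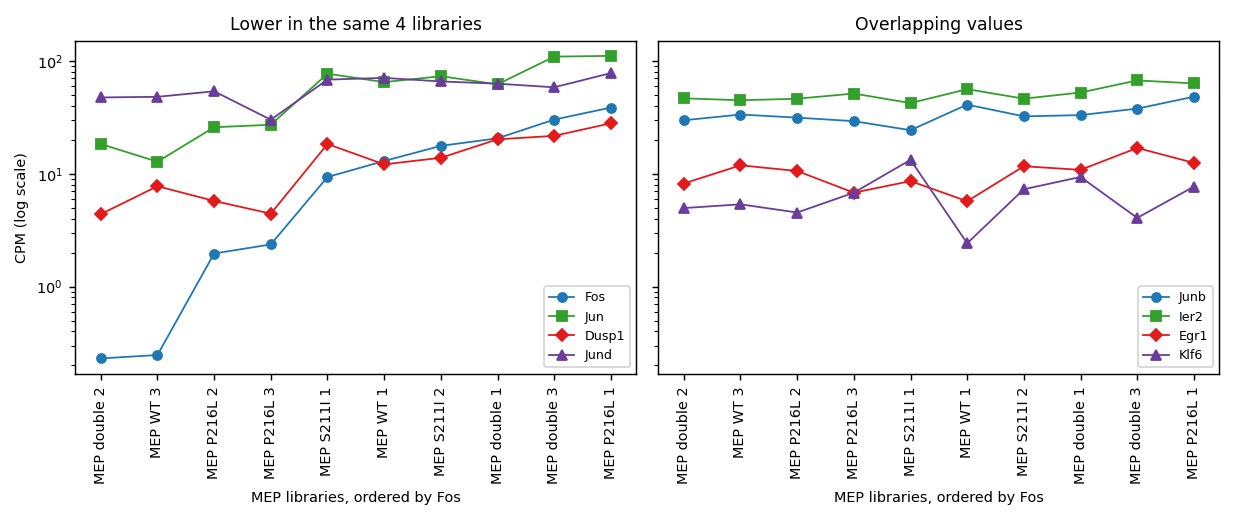
CPM (logarithmic axis) in the 10 MEP libraries ordered from lowest to highest Fos, with Fos, Jun, Dusp1 and Jund on the left and Junb, Ier2, Egr1 and Klf6 on the right. Fos runs from 0.231 to 38.6 CPM and Jun, Dusp1 and Jund are low in the same 4 libraries, which hold 3 genotypes.

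Genes whose pattern was most like that of the class were ranked by Pearson r between log2(CPM + 1) of each tested gene and the mean log2(CPM + 1) of the 10 genes. Over the 10 HSC libraries other than S211I replicate 2, the 10 highest of 9461 genes were Nxpe3 (r = 0.86), Selenom, Atg12, Nfix, Ctla2a, Spi1, Efcc1, Coro1a, Fkbp1a and Srpk1 (r = 0.81). Among the members themselves, Jun (r = 0.94), Dusp1 (0.93), Egr1 (0.89), Fos (0.84) and Ier2 (0.83) tracked the mean of the other 9 most closely, and Zfp36 (0.36) did so least. Over the 10 MEP libraries the highest of 10764 genes were Ap1g2 and Atpsckmt (r = 0.88 each). The points share library and depth, so these are descriptions.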

How the data were processed

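RNA of sorted HSC and MEP was extracted with NucleoSpin RNA XS and made into libraries by SMART-Seq v4 (Ultra Low Input), per the labels' protocols. The authors deposited estimated counts per Entrez gene for 21 libraries; the submitters' processing notes name FastQC, Salmon and GRCm39, without versions. Estimated counts were rounded for tests. Values not whole were 6.09 to 33.1% of those above 0, and among the 10 genes they were most frequent for Zfp36 (8 libraries), Jund (6) and Dusp1 (5). Titles write S211I and the genotype field P211I, and the title form is used. CPM are scaled to 1e+06 counts of the library and not per gene length, so they compare libraries, not genes.

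HSC, MEP and all libraries were fitted with edgeR 4.0.16 (R 4.3.3, limma 3.58.1): TMM size factors, filterByExpr (minimum count 10, total 15), robust quasi-likelihood, Benjamini-Hochberg over the 9471, 10773 and 12036 genes tested, threshold 0.05. Comparisons of MEP with HSC use the fit of all libraries. SE is the absolute log2 fold change over the square root of F. The spread between libraries (biological coefficient of variation) was 1.60 in HSC and 0.174 in MEP, and the shared fit (1.06) lies between them. The shared value is below that of HSC, so errors and adjusted p of MEP against HSC may be too small. Intervals from a count of 0 use 3 counts and cover counting error only.

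Alternatives were RLE size factors, no filter, the replicate number as a block, DESeq2 1.42.0, each library left out, and the HSC libraries nearest to MEP left out. The tests were tried on simulated counts, which for HSC and for the fit of all libraries had less spread than the data. That trial does not show how those fits perform here. The interaction of genotype with cell type was added after the data were seen. Libraries of a group were not copies of each other (chi-square per degree of freedom 4.63 to 88.2 over 18 pairs). Names are from RefSeq tables of GRCm38.p6, which is not the authors' build. Promoter windows of Egr1 and Ier2 were not used here, and that of Jund was left out because its start lies 1210 bases from the annotated one. All 10 genes are described, and from other lists those past the threshold are named, except 1 that is not reported here. The members and lists were chosen with earlier results of these data known.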

Additional observations from a re-analysis of the deposited data

Results flagged for a closer look

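For 7 of 30 gene and genotype pairs every mutant library lay above the WT mean in MEP and below the WT mean in HSC, and in none did the test of that difference pass after adjustment. S211I gave 5 of them, where 12.1% of all genes tested met the same description, P216L gave 1 (6.07%) and the double mutant gave 1 (6.18%). The differences below are log2 fold change against WT in MEP minus that in HSC, with SE, from edgeR.

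Klf6 differed most for P216L, by 5.22 ± 2.27 (edgeR adjusted p = 0.26). It stood at 4.53 to 7.69 CPM in P216L MEP and 2.42 to 5.36 CPM in WT MEP, while in HSC it stood at 8.23 to 36.9 CPM in P216L and 99.2 to 1116 CPM in WT. The difference was 3.02 ± 2.14 for the double mutant (adjusted p = 0.59) and 2.58 ± 2.33 for S211I (adjusted p = 0.75).

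For S211I the difference was 3.33 ± 2.59 for Fos (adjusted p = 0.68), 2.76 ± 1.74 for Jun (adjusted p = 0.56), 2.25 ± 1.62 for Dusp1 (adjusted p = 0.64) and 1.71 ± 1.62 for Jund (adjusted p = 0.77). HSC S211I holds 2 libraries, one of which is replicate 2 with its profile near MEP. Fos stood at 9.35 and 17.7 CPM in S211I MEP and 12.97 and 0.247 CPM in WT MEP, with 312 and 24.8 CPM in S211I HSC and 2440.2, 777 and 202 CPM in WT HSC.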

How the results depend on the processing

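Of 648 alternative values for 40 gene differences, 643 kept their direction and 602 also their side of the threshold. Over all genotypes 6 to 9 genes passed between MEP and HSC (6 to 8 with 1 library left out), and Fos, Jun, Egr1, Dusp1, Ier2 and Klf6 passed in all 26 alternatives. Jund passed only with DESeq2 (−1.29, adjusted p = 0.0031), where the median of all genes was −1.43. That median was 0.63 with TMM and 0.28 with RLE, so DESeq2 placed genes lower in MEP in general. Shares of all genes called are not given for the alternatives, so their counts are not read as particular to the class. In WT the count of 2 became 1 with RLE, 4 with no filter, 8 with DESeq2, 5 when S211I replicate 2, double-mutant replicate 3 and P216L replicate 3 of HSC were left out, and 0 to 2 with 1 library left out. The HSC counts of 0 became 1 with the replicate block for P216L, S211I and the mean of the mutants, the gene being Jun (mean of the mutants −2.16, adjusted p = 0.0018), and the WT count between cell types became 3. Numbers were not shown to pair libraries: same-numbered pairs correlated at −0.064 to 0.25 in HSC (1 of 15 over 0.1) and −0.13 to 0.039 in MEP (0 of 12). Direction turned for Fos (0.067) and Dusp1 (0.45) in the double mutant and Ier2 in the mean of the mutants (0.0037) without HSC WT replicate 1, for Ier2 also without those 3 libraries (0.061), and for Jun in MEP mutants without MEP WT replicate 3 (−0.050). With 1 library left out these ranged over −1.93 to 0.067, −1.14 to 0.45, −1.23 to 0.0037 and −0.050 to 2.32. The mean summed level in WT HSC of 8009 CPM was 5291 CPM on TMM sizes and 4251 to 11018 CPM with 1 library left out. Causes were not tested. Depth limits HSC: 1 count is 6.61 CPM in WT replicate 1 and 0.0824 CPM in MEP WT replicate 3.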
